A study of Mus musculus with 3 samples.

Results

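The insulin-like growth factor genes of mouse heart interstitial cells were described across cell classes, clusters and libraries. The group held 8 listed genes of the 17126 found across the 3 deposited tables: the ligands Igf1 and Igf2, the receptor Igf1r, and the binding proteins Igfbp3, Igfbp4, Igfbp5, Igfbp6 and Igfbp7. They were listed by name, and all 8 had transcripts in every library. Hearts were minced and digested with collagenase II, cardiomyocytes were spun out, and the remaining cells were sorted on surface Lin28, an RNA-binding protein, and surface cKit, the receptor for stem cell factor. The sorted groups were Lin28+/cKit+, Lin28+/cKit- and Lin28-/cKit- cells, with 1 droplet library of 3' transcript ends per group. The labels name no strain, age, sex, treatment or number of animals, so it is unknown how many hearts stand behind each library. The sort read protein on the cell surface; transcripts of Lin28a and of Lin28b were not analysed here.

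Igf1 and Igf2 are secreted growth factors that act through the receptor tyrosine kinase encoded by Igf1r, which signals through insulin receptor substrates, phosphoinositide 3-kinase and Akt. In extracellular fluid they are held by binding proteins, which lengthen their life, limit or deliver them to the receptor, and are cut by proteases such as the one encoded by Pappa. In the heart, fibroblasts, vessel cells and macrophages are known sources of these secreted proteins. Lin28 inside a cell blocks maturation of let-7 microRNAs, short RNAs that pair through their seed with sites in the 3' UTR of target messages.

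Since the sort was on Lin28, the let-7 seed was searched in the longest annotated 3' UTR of each of the 8 genes. All 9 mature let-7 and miR-98 RNAs from the 5p arm shared the seed GAGGUAG, bases 2 to 8, shown here in capitals for 3 of them (RefSeq, GRCm38.p6).
mmu-let-7a-5p: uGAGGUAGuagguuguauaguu
mmu-let-7g-5p: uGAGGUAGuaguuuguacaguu
mmu-miR-98-5p: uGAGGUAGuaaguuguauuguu
The complement CTACCTC, in capitals below, was present in 3 of the 8 genes, against 9.02% of 21020 genes with an annotated 3' UTR (GENCODE vM21, mm10). A letter match is a description and not evidence of a working site, and microRNAs were not measured.
Igf1, chr10:87932079-87932101, plus strand: caatatgtcatctacCTACCTCa
Igf1r, first site, chr7:68229110-68229132, plus strand: ttttcaaacatttatCTACCTCa
Igf1r, second site, chr7:68233216-68233238, plus strand: tttgccagagttcatCTACCTCt
Igfbp5, chr1:72859679-72859701, minus strand: cttccccaggtcagcCTACCTCc
The 3' UTRs of Igf2, Igfbp3, Igfbp4, Igfbp6 and Igfbp7, of 3050, 1435, 2813, 209 and 240 bases, held no CTACCTC. The genes with a match had the longest 3' UTRs of the 8, at 7267 bases for Igf1r, 6308 for Igf1 and 4445 for Igfbp5, and the share over all genes was not adjusted for length.

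The Lin28+/cKit+, Lin28+/cKit- and Lin28-/cKit- libraries held 1176, 681 and 3976 cells and 10400648, 7401174 and 34031955 UMIs, unique molecular identifiers that each count 1 captured transcript. Cells were grouped without the 8 genes, Kit or the pathway genes, and clusters were named from marker lists. Fibroblast-like cells made up 1.02%, 4.99% and 69.6% of the libraries in that order, macrophage-like cells 56.0%, 49.2% and 0.629%, and endothelial-like cells 36.5%, 35.8% and 23.4%. Of the 25 macrophage-like cells of the Lin28-/cKit- library, 4 lay in the cycling cluster 18 and went against the name, with 1 of 10 macrophage markers and all 10 pericyte markers detected. Kit transcripts stood at 7.02, 7.43 and 3.35 CPM in the same order, that is, about as high in the Lin28+/cKit- as in the Lin28+/cKit+ library, which were separated on surface cKit. The Lin28+/cKit+ library shared 8 cell barcodes with the Lin28-/cKit- library and 1 with the Lin28+/cKit- library, and these cells held at most 4 UMIs of any of the 8 genes. Each group being 1 library, no test was made. Levels below are CPM, the UMIs of a gene per 1000000 UMIs of the summed cells, ranges in brackets are 95% intervals for counting error only, and differences between animals and between library preparations cannot be told apart from differences between the sorted groups.

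Over all cells, 7 of the 8 genes were lower in both Lin28+ libraries than in the Lin28-/cKit- library, and Igf2 was near the limit of counting in every library. A gene was called higher or lower where its ratio was at least 1.5 in either direction with at least 20 UMIs in the pair. In Lin28+/cKit- against Lin28-/cKit- cells, 0 of the 8 genes were called higher and 6 lower, against 23.8% and 27.8% of all 13765 genes measured. In Lin28+/cKit+ against Lin28-/cKit- cells, 0 were called higher and 7 lower, against 21.8% and 31.1% of 13833 genes. Between the Lin28+ libraries, cKit+ over cKit-, 0 of 7 measurable genes were called higher and 2 lower, against 3.18% and 10.6% of 12200 genes. The median log2 ratio of the group was -1.06, -1.36 and -0.29 in these comparisons, against -0.08, -0.18 and -0.10 for all genes, and each pair of comparisons shares a library.

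**Figure D1:**
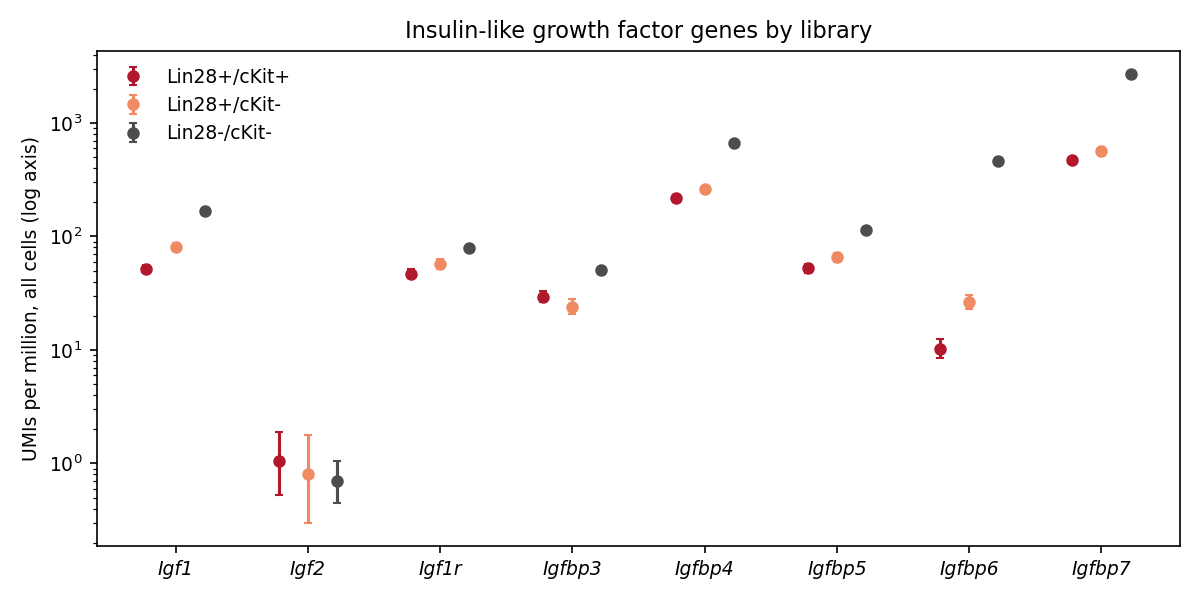
Level of each of the 8 genes over all cells of the Lin28+/cKit+, Lin28+/cKit- and Lin28-/cKit- libraries, in CPM on a log axis; points are library values and bars 95% counting intervals, many smaller than the points. The Lin28-/cKit- library is highest for every gene except Igf2, and the widest separation is for Igfbp6, at 10.3, 26.5 and 460.2 CPM.

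The classes that carried the transcripts differed between the sorted groups. In the Lin28-/cKit- library, fibroblast-like cells held 95.8% of Igf1, 84.9% of Igf1r, 95.2% of Igfbp4, 95.1% of Igfbp6 and 90.3% of Igfbp7 UMIs. In the Lin28+/cKit+ and Lin28+/cKit- libraries, macrophage-like cells held 95.5% and 80.0% of Igf1 UMIs, 56.5% and 56.5% of Igf1r, and 80.3% and 72.2% of Igfbp4. Endothelial-like cells held 95.1%, 88.2% and 22.9% of Igfbp3 UMIs in the Lin28+/cKit+, Lin28+/cKit- and Lin28-/cKit- libraries. In such sums over all cells, fewer cells of a type and less RNA per cell cannot be told apart, so the classes are given separately for each gene below. Averaged over the libraries with at least 20 cells of a class, fibroblast-like cells had the highest level of the 3 main classes for Igf1, Igf1r, Igfbp4, Igfbp6 and Igfbp7, and endothelial-like cells for Igf2, Igfbp3 and Igfbp5. This leaves out the 12 fibroblast-like cells of the Lin28+/cKit+ library, where Igf1r was at 28.7 CPM from 3 UMIs, against 74.0 CPM in endothelial-like cells. In the Lin28+/cKit- library Igfbp5 went the other way, at 210 CPM in fibroblast-like and 105 CPM in endothelial-like cells, with 77.5% of the former in 1 cell.

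**Figure D2:**
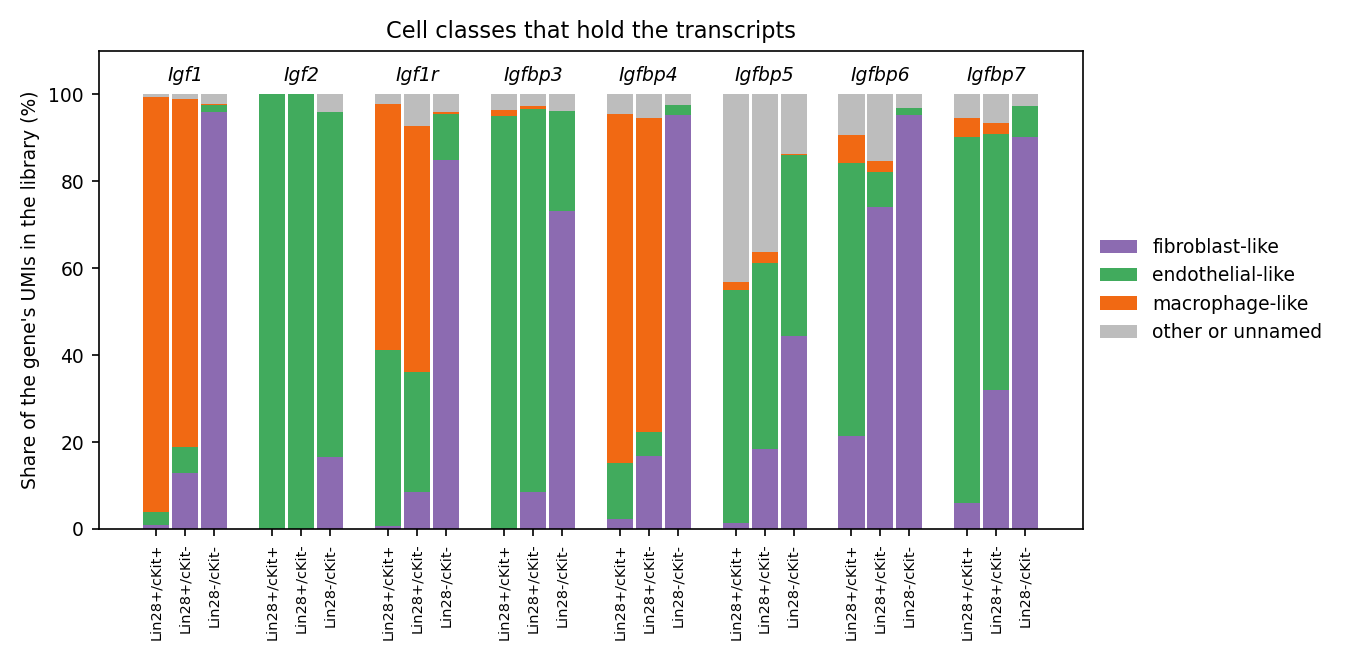
Share of each gene's UMIs, in percent of the library, that lay in fibroblast-like, endothelial-like, macrophage-like and all other or unnamed cells, with 1 bar per gene and library. Igf1 and Igfbp4 are mostly macrophage-like in both Lin28+ libraries and mostly fibroblast-like in the Lin28-/cKit- library.

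Igf1 (ENSMUSG00000020053.18, chr10:87858265-87937042, plus strand, protein-coding) is the main postnatal ligand of the family. Over all cells it had 51.6 CPM (47.4 to 56.2) in the Lin28+/cKit+ library, 81.1 CPM (74.7 to 87.8) in the Lin28+/cKit- library and 168 CPM (163 to 172) in the Lin28-/cKit- library, from 537, 600 and 5706 UMIs. The order was the same as for most of the group, with both Lin28+ libraries low. The ratio was 0.308 (0.281 to 0.336) for Lin28+/cKit+ over Lin28-/cKit-, 0.484 (0.444 to 0.526) for Lin28+/cKit- over Lin28-/cKit-, and 0.637 (0.566 to 0.717) for Lin28+/cKit+ over Lin28+/cKit-. The last call ends with TMM scaling, at 0.689.

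Within classes, Igf1 lay mostly in fibroblast-like and macrophage-like cells, though 1 endothelial-like cluster also held it. Macrophage-like cells had 71.3 CPM (65.2 to 77.7) in the Lin28+/cKit+ library and 104 CPM (94.6 to 113) in the Lin28+/cKit- library, and the 25 macrophage-like cells of the Lin28-/cKit- library held 2 UMIs. The 2768 fibroblast-like cells of the Lin28-/cKit- library had 195 CPM (189.5 to 199.9), and the 34 of the Lin28+/cKit- library 182 CPM (143 to 227), of which 1 cell gave 48.1%. The 12 fibroblast-like cells of the Lin28+/cKit+ library held 5 UMIs. Endothelial-like cells had 5.98, 18.2 and 23.9 CPM in the Lin28+/cKit+, Lin28+/cKit- and Lin28-/cKit- libraries, below the macrophage-like cells of both Lin28+ libraries and the fibroblast-like cells of the Lin28-/cKit- library. Among endothelial-like clusters, cluster 9, led by Prss23 and Serpina1b, was highest on average, with 22.8 to 54.8 CPM in the 3 libraries. Its range overlaps that of macrophage-like cluster 6, given below. In cluster 9 the 10 fibroblast markers stood at 0.0360%, 0.0845% and 3.48% of their fibroblast-like level, in the same order of libraries. In macrophage-like cells of the Lin28+/cKit+ and Lin28+/cKit- libraries, the 10 fibroblast markers together stood at 0.188% and 0.212% of their level in fibroblast-like cells, whereas Igf1 stood at 149% and 57.0% of its level there, the first against 12 fibroblast-like cells.

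Among macrophage-like clusters, cluster 4 (led by Retnla, Lyve1 and Folr2, with 8 of 8 resident macrophage markers) had 386 UMIs of Igf1, or 101.9 CPM (92.0 to 113), in the Lin28+/cKit+ library and 118 CPM (107 to 130) in the Lin28+/cKit- library. Cluster 6, led by Il1b, H2-Eb1 and Mmp13, had 38.2 CPM (31.5 to 45.8) and 59.8 CPM (45.9 to 76.7). In each of these libraries cluster 4 was thus higher than cluster 6, with intervals that do not overlap. The shallow macrophage-like cluster 12 had 101 CPM (40.7 to 208) and 215 CPM (115 to 368), from 7 and 13 UMIs, and its intervals overlap those of cluster 4. Lin28+/cKit+ over Lin28+/cKit-, the ratio was 0.863 (0.749 to 0.995) in cluster 4, whereas cluster 6 was called lower at 0.638 (0.465 to 0.884). Cluster 4 made up 42.9% of macrophage-like cells in the Lin28+/cKit+ library and 54.6% in the Lin28+/cKit- library, and cluster 6 made up 47.0% and 24.8%. Over the whole macrophage-like class the ratio was 0.688 (0.606 to 0.781), short of the 1.5-fold limit.

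Among the fibroblast-like clusters of the Lin28-/cKit- library, cluster 7 (led by Inmt, Apod and C4b) had the most Igf1, at 380.5 CPM (362 to 399). Cluster 1, led by G0s2, had 211 CPM (199.8 to 223), cluster 8, led by Postn and Cytl1, 173 CPM (159 to 188), and cluster 2, led by the stress-response genes Hspa1a and Fosb, 155 CPM (146 to 164). Cluster 3, led by Ugdh and Cd248 with 5 of 8 adventitial markers, was lowest at 124 CPM (116 to 132). The intervals of clusters 8 and 2 overlap, and no other neighbours in this order do.

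Igf2 (ENSMUSG00000048583.16, chr7:142650766-142666816, minus strand, protein-coding) is the imprinted fetal ligand of the family. It had 11 UMIs in the Lin28+/cKit+ library, 6 in the Lin28+/cKit- library and 24 in the Lin28-/cKit- library, which is 1.06 CPM (0.528 to 1.89), 0.811 CPM (0.298 to 1.76) and 0.705 CPM (0.452 to 1.05). No difference between libraries was detectable at this depth. Lin28+/cKit+ over Lin28-/cKit-, the ratio was 1.4997 (0.663 to 3.18), just under the limit for a call, and 0.833 as a mean over cells. Endothelial-like cells held 100%, 100% and 79.2% of these UMIs, with levels of 4.11 CPM (2.05 to 7.35) in Lin28+/cKit+, 3.04 CPM (1.11 to 6.61) in Lin28+/cKit- and 4.49 CPM (2.71 to 7.02) in Lin28-/cKit- cells. Macrophage-like cells held 0 UMIs in every library, and the limit of 3 UMIs that a count of 0 allows is 0.417, 0.648 and 19.9 CPM. Within endothelial-like cells, cluster 10, led by Cytl1 and Npr3 with 6 of 8 endocardial markers, had 20.1 CPM (7.37 to 43.7) in the Lin28+/cKit+ library and 13.4 CPM (6.95 to 23.5) in the Lin28-/cKit- library, from 6 and 12 UMIs. Cluster 5, led by Hey1, Alpl and Sema3g, was second on average over libraries, with 3.81 to 10.9 CPM in the 3 libraries. Cluster 0, led by Car4 and Cldn5 with 2 of 8 capillary markers, held 0 UMIs in the Lin28+/cKit+ library and 2 in the Lin28-/cKit- library.

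Igf1r (ENSMUSG00000005533.10, chr7:67952827-68233668, plus strand, protein-coding) encodes the receptor through which both ligands signal. It had 46.8 CPM (42.8 to 51.2) in the Lin28+/cKit+ library, 57.2 CPM (51.8 to 62.9) in the Lin28+/cKit- library and 79.8 CPM (76.9 to 82.9) in the Lin28-/cKit- library. The ratio was 0.587 (0.531 to 0.646) for Lin28+/cKit+ over Lin28-/cKit-, 0.716 (0.645 to 0.793) for Lin28+/cKit- over Lin28-/cKit- and 0.819 (0.718 to 0.935) for Lin28+/cKit+ over Lin28+/cKit-, and only the first was called. Of the genes with over 100 UMIs in each library, Igf1r had the ratios closest to 1 against the Lin28-/cKit- library. Endothelial-like cells had 74.0 CPM (64.0 to 85.0) in the Lin28+/cKit+, 59.2 CPM (49.0 to 71.0) in the Lin28+/cKit- and 68.1 CPM (60.5 to 76.5) in the Lin28-/cKit- library, with overlapping intervals. Macrophage-like cells had 38.2 CPM (33.8 to 43.0) in the Lin28+/cKit+ library and 51.6 CPM (45.3 to 58.6) in the Lin28+/cKit- library, lower than endothelial-like cells in the first library and with overlapping intervals in the second. Fibroblast-like cells of the Lin28-/cKit- library had 82.1 CPM (78.8 to 85.6). Its highest level in any cluster with at least 20 cells in a library was 159 CPM (106 to 228), from 29 UMIs, in cluster 14 of the Lin28-/cKit- library, an unnamed cluster with pericyte and smooth muscle markers.

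Igfbp3 (ENSMUSG00000020427.11, chr11:7206086-7213923, minus strand, protein-coding) encodes the main circulating binding protein. Over all cells it had 29.4 CPM (26.2 to 32.9) in the Lin28+/cKit+ library, 24.1 CPM (20.6 to 27.9) in the Lin28+/cKit- library and 50.6 CPM (48.3 to 53.1) in the Lin28-/cKit- library. In endothelial-like cells the same libraries had 109 CPM (96.6 to 122) for Lin28+/cKit+, 79.5 CPM (67.5 to 92.9) for Lin28+/cKit- and 93.2 CPM (84.2 to 103) for Lin28-/cKit-. Macrophage-like cells held 4, 1 and 0 UMIs. The order of the libraries over all cells was thus not the order within endothelial-like cells. The arterial cluster 5, led by Hey1, Alpl and Sema3g, was its highest in every library among clusters of at least 20 cells, with 239 CPM (200.4 to 282) for Lin28+/cKit+, 267 CPM (198 to 353) for Lin28+/cKit- and 169 CPM (145 to 196) for Lin28-/cKit-. In the second, 1 cell held 38.8% of the cluster's Igfbp3. Cluster 0 had 97.4 CPM (82.4 to 114) for Lin28+/cKit+, 61.6 CPM (48.7 to 76.9) for Lin28+/cKit- and 106 CPM (91.1 to 123) for Lin28-/cKit-, and the endocardial cluster 10 had 3.35 CPM and 12.3 CPM in the Lin28+/cKit+ and Lin28-/cKit- libraries. In cluster 0, Igfbp3 was lower in Lin28+/cKit- than in Lin28-/cKit- cells, at 0.579 (0.438 to 0.761), and higher in Lin28+/cKit+ than in Lin28+/cKit- cells, at 1.58 (1.19 to 2.11). Among fibroblast-like clusters of the Lin28-/cKit- library, cluster 7 had 114 CPM (104 to 124) and cluster 3 had 23.7 CPM (20.4 to 27.4).

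Igfbp4 (ENSMUSG00000017493.12, chr11:99041244-99054392, plus strand, protein-coding) encodes a binding protein that holds the ligand until the Pappa protease cuts it. It had 219.6 CPM (211 to 229) in the Lin28+/cKit+ library, 262 CPM (250.3 to 274) in the Lin28+/cKit- library and 666 CPM (658 to 675) in the Lin28-/cKit- library. Both Lin28+ libraries were low, at ratios of 0.330 (0.316 to 0.344) and 0.393 (0.375 to 0.412) to the Lin28-/cKit- library. Macrophage-like cells had 255 CPM (243 to 267) in the Lin28+/cKit+ library and 302 CPM (286 to 318) in the Lin28+/cKit- library, which is 48.5% and 39.1% of the level in fibroblast-like cells of the same library, where fibroblast markers stood at the percentages given above for these cells. Cluster 12 had 304 CPM (188 to 464) and 414 CPM (268 to 611), and cluster 4 again exceeded cluster 6, at 304 against 202 CPM in the Lin28+/cKit+ library and 328 against 199 CPM in the Lin28+/cKit- library. In the Lin28-/cKit- library the fibroblast-like clusters ran from 1168 CPM (1136 to 1201) in cluster 7, through 800.3, 762 and 725 CPM in clusters 8, 3 and 1, to 555 CPM (538 to 573) in cluster 2. Among endothelial-like clusters, cluster 10 was highest, with 673 CPM (583 to 773) in the Lin28+/cKit+ library and 319 CPM (283 to 359) in the Lin28-/cKit- library, whereas cluster 0 had 17.5 and 44.9 CPM there. In cluster 10 the fibroblast markers stood at 8.08% and 21.4% of their fibroblast-like level and the endothelial markers at 32.6% and 32.5% of their endothelial-like level. Lymphatic endothelial-like cells, 13, 17 and 19 per library, had 883, 582 and 530.1 CPM.

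Igfbp5 (ENSMUSG00000026185.8, chr1:72857932-72874884, minus strand, protein-coding) encodes a binding protein that attaches to extracellular matrix. It had 52.4 CPM (48.1 to 57.0) in the Lin28+/cKit+ library, 65.7 CPM (60.0 to 71.8) in the Lin28+/cKit- library and 113 CPM (109.8 to 117) in the Lin28-/cKit- library. Its counts leaned on few cells, since 1 cell held 16.7%, 15% and 5.96% of all its UMIs in the 3 libraries. Lymphatic endothelial-like cells had 2089.7, 640 and 2831 CPM and held 40.4%, 15.8% and 6.09% of the library's Igfbp5. In each library 1 such cell held 41.4%, 44.2% and 24.3% of the UMIs of the class. Mesothelial-like cells, 6 in the Lin28+/cKit- and 4 in the Lin28-/cKit- library, had 2340 CPM (1687 to 3164) and 2467 CPM (2067 to 2922). The endocardial cluster 10 had 780.4 CPM (683 to 887) in 31 cells of the Lin28+/cKit+ library and 1568 CPM (1487 to 1652) in 108 cells of the Lin28-/cKit- library, and in the 11 cells of the Lin28+/cKit- library 1 cell held 92.4% of its 79 UMIs. Cluster 9, led by Prss23 and Serpina1b with 3 of 8 venous markers, had 79.9, 236 and 212 CPM in the 3 libraries, with 55.2% of the Lin28+/cKit- value in 1 cell. Cluster 0 had 20.1, 18.2 and 24.0 CPM, with overlapping intervals. Among fibroblast-like clusters of the Lin28-/cKit- library, cluster 8 had 195 CPM (180.0 to 211), of which 1 cell gave 25%, and cluster 7, which led for Igf1, Igfbp3 and Igfbp4, had 11.1 CPM (8.12 to 14.7).

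Igfbp6 (ENSMUSG00000023046.6, chr15:102144362-102149511, plus strand, protein-coding) encodes a binding protein that prefers Igf2. It had 10.3 CPM (8.43 to 12.4) in the Lin28+/cKit+ library, 26.5 CPM (22.9 to 30.5) in the Lin28+/cKit- library and 460.2 CPM (453 to 467) in the Lin28-/cKit- library, from 107, 196 and 15661 UMIs. This was the widest separation in the group, 44.7-fold lower in Lin28+/cKit+ and 17.4-fold lower in Lin28+/cKit- than in Lin28-/cKit- cells. Lin28+/cKit+ over Lin28+/cKit-, the ratio was 0.388 (0.304 to 0.494). Fibroblast-like cells had 219.8 CPM (139 to 330) in the Lin28+/cKit+ library, 342 CPM (289 to 403) in the Lin28+/cKit- library and 530.2 CPM (522 to 539) in the Lin28-/cKit- library, the first from 23 UMIs. They held 21.5%, 74.0% and 95.1% of the library's Igfbp6 UMIs, and endothelial-like cells 62.6%, 8.16% and 1.73%. The endocardial cluster 10 had 204 CPM in the Lin28+/cKit+ library and 180.4 CPM in the Lin28-/cKit- library. These were 93.0% and 34.0% of the fibroblast-like level, where its fibroblast markers stood at 8.08% and 21.4%. Of the fibroblast-like clusters of the Lin28-/cKit- library, cluster 8 had the most Igfbp6, at 851 CPM (819 to 883). Cluster 3 followed at 683 CPM (665 to 702), and cluster 7 was lowest at 262 CPM (247 to 278). Mesothelial-like cells stood above the fibroblast-like cells of their library. The 6 of the Lin28+/cKit- library had 1560 CPM (1037 to 2255), and the 4 of the Lin28-/cKit- library 4289 CPM (3756 to 4877), from 28 and 233 UMIs. Cluster 0 held 0, 2 and 51 UMIs in the Lin28+/cKit+, Lin28+/cKit- and Lin28-/cKit- libraries, the first with a limit of 1.95 CPM at 3 UMIs and the last giving 31.3 CPM (23.3 to 41.2). In those cluster 0 cells the fibroblast markers stood at 0.0639%, 0.0934% and 4.37% of their fibroblast-like level, and Igfbp6 in the last at 5.91%; the part of fibroblast RNA in this difference was not tested.

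Igfbp7 (ENSMUSG00000036256.13, chr5:77349240-77408041, minus strand, protein-coding) encodes a secreted protein of vessel walls that binds the ligands weakly. It had 473 CPM (459.9 to 486) in the Lin28+/cKit+ library, 571 CPM (554 to 588) in the Lin28+/cKit- library and 2724 CPM (2706 to 2741) in the Lin28-/cKit- library, from 4920, 4225 and 92686 UMIs. Over all cells it was 5.76-fold lower in Lin28+/cKit+ and 4.77-fold lower in Lin28+/cKit- than in Lin28-/cKit- cells. Within endothelial-like cells it had 1545 CPM (1498 to 1593) for Lin28+/cKit+, 1261 CPM (1212 to 1311) for Lin28+/cKit- and 1542 CPM (1504.5 to 1580) for Lin28-/cKit-, so the ratio there was 1.00 (0.964 to 1.04) for Lin28+/cKit+ over Lin28-/cKit- and 0.818 (0.781 to 0.857) for Lin28+/cKit- over Lin28-/cKit-. Cluster 5 had 2068, 1902 and 2110.0 CPM and cluster 0 had 1668, 1433 and 1876 CPM, against 727, 623 and 764 CPM in cluster 9. Fibroblast-like cells had 2828, 3194 and 2977 CPM in the 3 libraries, the first from 12 cells. Macrophage-like cells had 31.1, 22.9 and 611 CPM in the 3 libraries, the last from 92 UMIs in 25 cells, with 52.2% in 1 cell and 73 UMIs in the 4 cells of cluster 18 that went against the name.

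**Figure D3:**
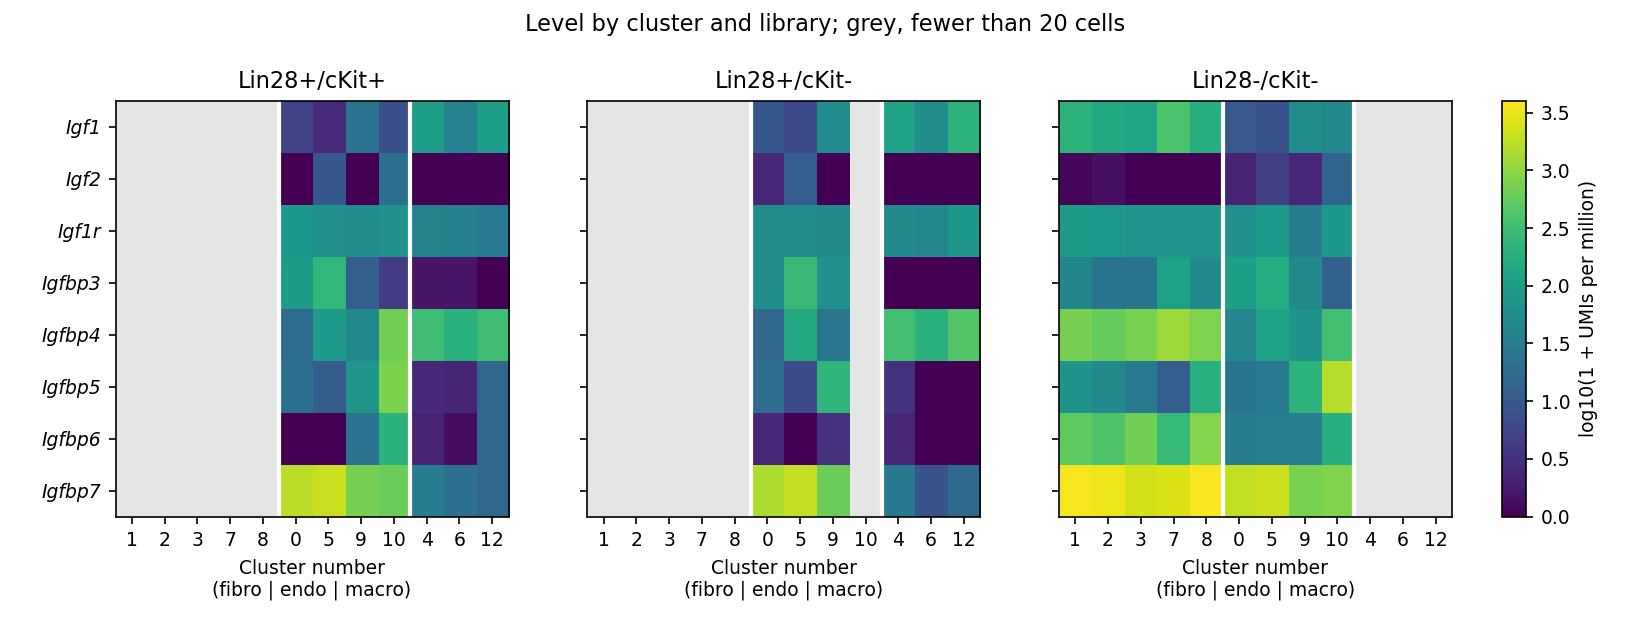
Level of the 8 genes, as log10(1 + CPM), in the fibroblast-like, endothelial-like and macrophage-like clusters of each library, with clusters by number and units of fewer than 20 cells in grey. Igf1 and Igfbp4 are high in fibroblast-like and macrophage-like clusters, and Igfbp4 also in the endothelial-like cluster 10. Igfbp3 is high in clusters 5, 0 and 7, and Igfbp5 in cluster 10.

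Comparison within classes was possible where each library had at least 50 cells of the class. In endothelial-like cells, Lin28+/cKit- over Lin28-/cKit-, 0 of the 8 genes were called higher and 3 lower, against 6.39% and 11.9% of all genes measured. The 3 were Igfbp4 at 0.428 (0.344 to 0.528), Igfbp5 at 0.277 (0.238 to 0.320) and Igfbp6 at 0.126 (0.0712 to 0.209). Without cluster 10, an alternative chosen after seeing the data, the Igfbp5 ratio was 1.08, on the other side of 1. The Igfbp6 ratio was then 0.0480. In the Lin28+/cKit- library, 1 cell held the larger part of Igfbp5 in the cluster led by Prss23 and Serpina1b. That cell was kept in the 1.08, and the ratio without it was not tested. For Lin28+/cKit+ over Lin28-/cKit-, 0 were called higher and 3 lower, against 4.38% and 10.6%, namely Igf1 at 0.25 (0.138 to 0.426), Igfbp5 at 0.286 (0.251 to 0.324) and Igfbp6 at 0.391 (0.294 to 0.512). Without cluster 10, Igfbp6 was at 0.0765 and Igfbp4 was also called lower, at 0.510. Fibroblast markers in endothelial-like cells stood at 0.956%, 0.400% and 7.84% of their fibroblast-like level in the Lin28+/cKit+, Lin28+/cKit- and Lin28-/cKit- libraries, and their part in the lower Igf1, Igfbp4 and Igfbp6 was not tested.

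Between the Lin28+ libraries, cKit+ over cKit-, endothelial-like cells had 2 of 7 measurable genes called higher and 1 lower, against 7.12% and 7.05% of genes. Igfbp4 was higher, at 108 CPM in Lin28+/cKit+ and 53.7 CPM in Lin28+/cKit- cells, a ratio of 2.02 (1.61 to 2.55). Igfbp6 was higher at 3.09 (1.77 to 5.71), from 67 and 16 UMIs, and Igf1 lower at 0.328 (0.170 to 0.606), from 16 and 36 UMIs. Cluster 9, the endothelial-like cluster with the most Igf1 on average, made up 9.09% of these cells in Lin28+/cKit+ and 19.3% in Lin28+/cKit-. The part of this share in the lower Igf1 was not tested. Cluster 10 made up 7.23% of endothelial-like cells in the Lin28+/cKit+ library and 4.51% in the Lin28+/cKit- library. Without it the ratio of Igfbp4 was 1.24 and that of Igfbp6 1.59 with too few UMIs for a call, so neither remained called. Igfbp5 was then called lower, at 0.358. In cluster 9 of the Lin28+/cKit- library, 1 cell held the larger part of Igfbp5. That cell was kept in the 0.358, and the ratio without it was not tested. In macrophage-like cells 0 of 5 measurable genes were called higher and 1 lower, against 3.74% and 7.86%. The 1 gene was Igfbp5, at 0.545 (0.221 to 1.32) from 11 and 13 UMIs, an interval that holds 1. The UMIs lay in 11 Lin28+/cKit+ and 3 Lin28+/cKit- cells, with 53.8% of the latter in 1 cell. Igf1r at 0.740 (0.620 to 0.884) and Igfbp4 at 0.843 (0.786 to 0.905) stayed within the limit.

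Within clusters that had enough cells, the counts were as follows. In cluster 0, Lin28+/cKit- over Lin28-/cKit-, 0 genes were called higher and 3 lower (Igfbp3, Igfbp4 and Igfbp6), against 7.16% and 9.7% of genes. For Lin28+/cKit+ over Lin28-/cKit- in cluster 0, 0 were higher and 3 lower (Igf1, Igfbp4 and Igfbp6), against 5.52% and 8.81%, with Igfbp4 at 0.391 (0.241 to 0.615) and an interval for Igf1 that holds 1. Between the Lin28+ libraries, cKit+ over cKit-, cluster 0 had Igfbp3 higher and no gene lower, against 7.17% and 8.08%. In the arterial cluster 5, Lin28+/cKit+ over Lin28-/cKit-, 0 were higher and 2 lower, Igfbp5 from 6 and 32 UMIs and Igfbp6 from 0 and 37 UMIs, against 7.49% and 12.8%. In the resident macrophage cluster 4, Lin28+/cKit+ over Lin28+/cKit-, none of 4 measurable genes was called in either direction, against 4.18% and 6.78%. In cluster 6 the same comparison had Igfbp7 higher at 2.58 (1.23 to 6.25), from 60 and 8 UMIs, and Igf1 lower, against 8.43% and 10.7%. In cluster 12, whose cells were shallow at a median of 832 UMIs, Igf1 alone was called lower, from 7 and 13 UMIs, against 13% and 20.1%.

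**Figure D4:**
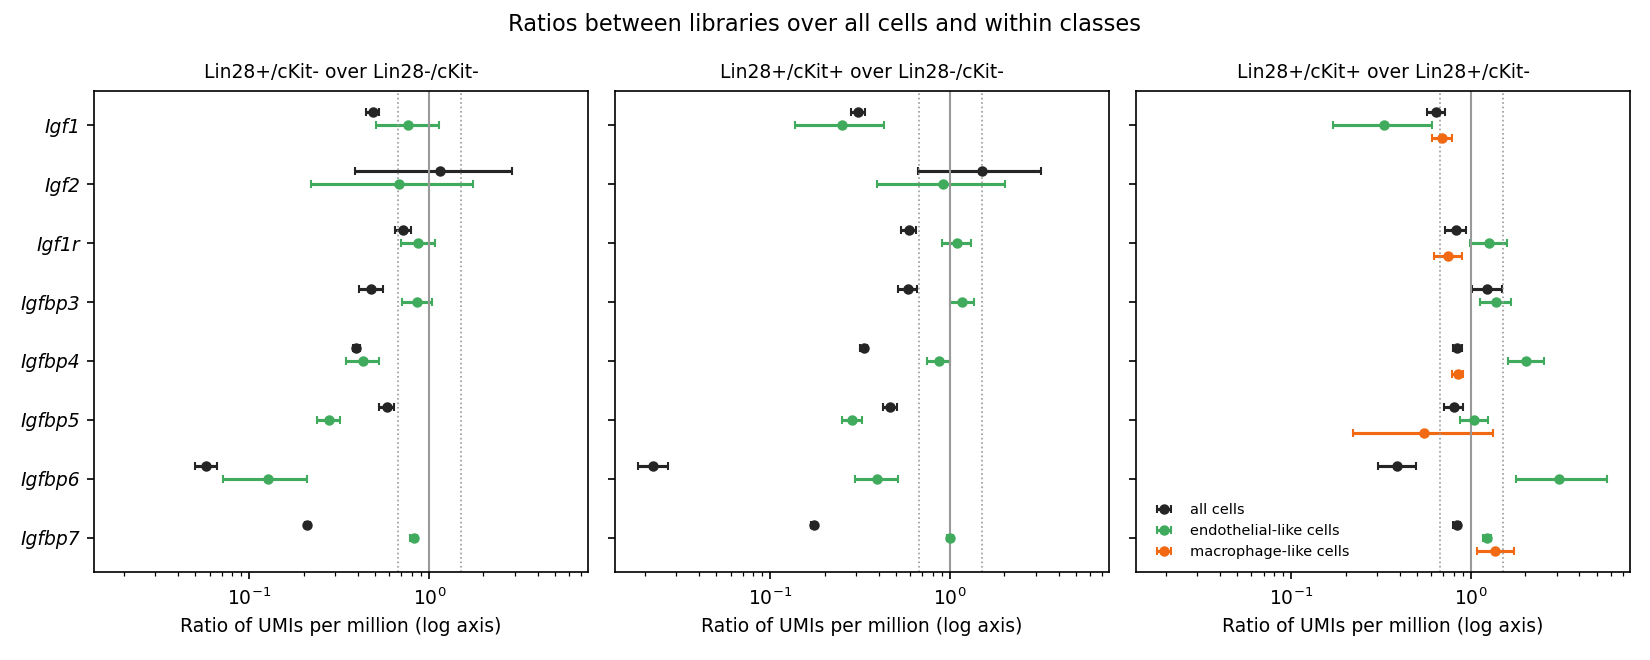
Ratio of CPM between libraries for each gene, over all cells and within endothelial-like and macrophage-like cells, on a log axis; bars are 95% counting intervals, the solid line is 1 and the dotted lines are the 1.5-fold limits. Igfbp7 lies at 0.174 over all cells and at 1.00 within endothelial-like cells for Lin28+/cKit+ over Lin28-/cKit-. Macrophage-like cells were too few in the Lin28-/cKit- library to be compared.

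Other genes of the pathway were taken from 5 lists. Of the ligand, receptor and carrier list, 2 of 9 genes were in the tables and the other 7 were not analysed here. Igf2r, which encodes the receptor that clears Igf2, had 21.2 CPM in the Lin28+/cKit+ library, 35.3 CPM in the Lin28+/cKit- library and 118 CPM in the Lin28-/cKit- library, and macrophage-like cells had 1.11 and 2.37 CPM in the Lin28+/cKit+ and Lin28+/cKit- libraries against 65.4 and 90.6 CPM in endothelial-like cells. Insr, the insulin receptor, was called higher in Lin28+/cKit- than in Lin28-/cKit- cells, at 26.8 against 17.7 CPM, a ratio of 1.51 (1.28 to 1.78).

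Of the list of binding protein proteases and their inhibitors, 6 of 7 genes were measurable over all cells against the Lin28-/cKit- library. In Lin28+/cKit- cells 0 were higher and 4 lower, against 23.8% and 27.8% of all genes, and in Lin28+/cKit+ cells 1 was higher and 5 lower, against 21.8% and 31.1%. Pappa, the protease that cuts Igfbp4, had 0 UMIs in the Lin28+/cKit+ library, 0 in the Lin28+/cKit- library and 212 in the Lin28-/cKit- library, of which 191 lay in fibroblast-like cells. The upper bounds of its ratio to the Lin28-/cKit- library were 0.0574 and 0.0807. Stc2, an inhibitor of that protease, had 1.83, 5.13 and 53.1 CPM, and Htra1, a serine protease with a binding protein domain, had 10.9, 20.3 and 229 CPM. All 3 were low in both Lin28+ libraries over all cells. In endothelial-like cells 4 genes of the list were measurable. There 0 were higher and 3 lower in Lin28+/cKit- against Lin28-/cKit- cells, where 6.39% and 11.9% of all genes were. In Lin28+/cKit+ cells 0 were higher and 2 lower, against 4.38% and 10.6%.

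Of the 9 proteins with a binding protein domain, 8 were measurable over all cells. Lin28+/cKit- over Lin28-/cKit-, 1 was higher and 7 lower, against 23.8% and 27.8% of all genes, and Lin28+/cKit+ over Lin28-/cKit-, 0 were higher and 6 lower, against 21.8% and 31.1%. In endothelial-like cells, also with 8 measurable, 0 were higher and 5 lower in the first comparison, against 6.39% and 11.9%. In the second, 0 were higher and 4 lower, against 4.38% and 10.6%. Wisp2, a matricellular gene, had 3, 87 and 2045 UMIs in the Lin28+/cKit+, Lin28+/cKit- and Lin28-/cKit- libraries, a ratio of 0.0245 (0.00496 to 0.0741) between the Lin28+ libraries. Ctgf, of the same family, had 16.8, 45.9 and 174 CPM over all cells. In fibroblast-like cells Ctgf had 408 CPM (350 to 474) in 34 Lin28+/cKit- cells and 192 CPM (187 to 198) in the Lin28-/cKit- library. The 12 fibroblast-like cells of the Lin28+/cKit+ library had 76.4 CPM (33.0 to 151) from 8 UMIs. Endothelial-like cells had 55.3, 62.3 and 80.2 CPM in the Lin28+/cKit+, Lin28+/cKit- and Lin28-/cKit- libraries.

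Of the adaptor and signalling list, 25 of 26 genes were measurable. Lin28+/cKit- over Lin28-/cKit-, 2 were higher, 8 lower and 15 neither, where 23.8% of all genes were higher and 27.8% lower. With Lin28+/cKit+ over Lin28-/cKit- cells, 2 were higher, 9 lower and 14 neither, where 21.8% were higher and 31.1% lower, so the counts of lower genes were near those of all genes. In endothelial-like cells, of 23 measurable genes, 1 was higher and 3 lower in the first comparison, against 6.39% and 11.9%. In the second, 0 were higher and 1 lower, against 4.38% and 10.6%. The adaptor gene Grb2 had 154, 141 and 53.7 CPM in the 3 libraries, and the kinase subunit gene Pik3cb 17.5, 14.1 and 5.11 CPM. The insulin receptor substrate gene Irs1 was lower in the Lin28+ libraries, at 0.577, 2.03 and 13.7 CPM. Irs2, its relative, had 45.4 CPM (40.6 to 50.6) in macrophage-like cells of the Lin28+/cKit+ library and 68.2 CPM (60.9 to 76.2) in those of the Lin28+/cKit- library, a ratio of 0.666 (0.569 to 0.780) at the edge of the 1.5-fold limit, in a comparison where TMM scaling moved the median of all genes by 0.11 (log2). Irs1 there had 4 and 5 UMIs.

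Of the growth hormone axis and Igf2 RNA list, 7 of 8 genes were measurable over all cells, with 1 higher and 4 lower in each Lin28+ library against the Lin28-/cKit- library, where 21.8% to 23.8% of all genes were higher and 27.8% to 31.1% lower. In endothelial-like cells, of 6 measurable genes, 0 were higher and 1 lower in Lin28+/cKit- cells, against 6.39% and 11.9%. In Lin28+/cKit+ cells 0 were higher and 0 lower, against 4.38% and 10.6%. Ghr, the growth hormone receptor, had 12.9, 17.8 and 113 CPM, and Socs2, an inhibitor of its signal, 28.7, 37.3 and 151 CPM. H19, the noncoding RNA imprinted beside Igf2, was higher, at 16.6, 12 and 6.38 CPM. In endothelial-like cells H19 had 63.9 CPM (54.7 to 74.2) for Lin28+/cKit+, 41.5 CPM (33.0 to 51.5) for Lin28+/cKit- and 47.8 CPM (41.4 to 54.8) for Lin28-/cKit-, and fibroblast-like cells held 0, 0 and 13 UMIs and macrophage-like cells 2, 0 and 0.

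Across 27 units, each a cluster of at least 20 cells in 1 library, the genes whose log2(CPM + 10) most resembled a member were found among 8126 genes. Units of a library share its depth and preparation, so Pearson's r is given as a description. For Igf1 they were Cmklr1 at 0.92, Timp2 at 0.90 and Colec12 at 0.89, and for Igfbp6 Ptgis at 0.97, Islr at 0.96 and Vcan at 0.96. For Igfbp7 they were Sparc at 0.97, Akap12 at 0.96 and Gnas at 0.96, and for Igfbp3 Adarb1 at 0.92, Papss2 at 0.88 and Gja1 at 0.87. For Igfbp5 they were Pde3a at 0.88, Nr2f2 at 0.86 and Cpe at 0.86, for Igfbp4 Pla2g4a, Selenbp1 and Rnase4 at 0.87, 0.87 and 0.86, and for Igf1r Ppp2r1a, Jagn1 and Hp1bp3 at 0.91, 0.88 and 0.88. Igf2 had too few UMIs for this search.

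Among the 8 genes themselves, Igfbp3 and Igfbp7 varied most alike over these units, with r of 0.78, followed by Igf1 and Igfbp4 with 0.70. Among the 7 genes with enough UMIs, Igf1 and Igfbp3 were the most unlike pair, with r of -0.33. The promoters of the 2 most alike pairs, 250 bases before to 50 after the RefSeq start (GRCm38.p6, gene strand), are printed with matches in capitals on either strand to the TATA box letters TATAAA, to the Sp1 letters GGGCGG, to the Ets letters CCGGAAG or to the AP-1 letters TGANTCA.
Igf1, chr10:87860861-87861160, plus strand: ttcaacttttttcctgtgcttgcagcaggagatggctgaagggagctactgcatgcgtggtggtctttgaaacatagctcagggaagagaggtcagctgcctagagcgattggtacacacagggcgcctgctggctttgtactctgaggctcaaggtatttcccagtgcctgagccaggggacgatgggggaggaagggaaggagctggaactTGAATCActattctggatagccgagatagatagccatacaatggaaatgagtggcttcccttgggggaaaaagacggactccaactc
Igfbp4, chr11:99040994-99041293, plus strand: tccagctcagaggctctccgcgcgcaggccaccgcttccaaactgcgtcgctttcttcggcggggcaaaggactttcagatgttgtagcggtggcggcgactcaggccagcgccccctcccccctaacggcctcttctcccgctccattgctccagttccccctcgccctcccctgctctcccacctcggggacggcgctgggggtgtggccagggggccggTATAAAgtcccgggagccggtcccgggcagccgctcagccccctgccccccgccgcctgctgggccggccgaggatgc
Igfbp3, chr11:7213874-7214173, minus strand: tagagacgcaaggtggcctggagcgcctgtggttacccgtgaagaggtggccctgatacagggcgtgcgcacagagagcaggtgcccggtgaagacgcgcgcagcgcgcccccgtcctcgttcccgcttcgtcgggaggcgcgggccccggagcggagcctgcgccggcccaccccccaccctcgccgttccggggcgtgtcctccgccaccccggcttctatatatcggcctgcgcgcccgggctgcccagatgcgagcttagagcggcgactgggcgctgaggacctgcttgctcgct
Igfbp7, chr5:77407996-77408295, minus strand: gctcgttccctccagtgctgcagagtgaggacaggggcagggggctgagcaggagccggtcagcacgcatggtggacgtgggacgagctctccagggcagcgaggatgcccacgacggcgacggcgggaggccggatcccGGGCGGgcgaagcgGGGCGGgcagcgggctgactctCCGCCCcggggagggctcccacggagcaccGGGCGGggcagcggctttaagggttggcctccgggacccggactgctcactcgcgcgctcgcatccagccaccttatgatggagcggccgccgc
The Igf1 window held 1 TGANTCA, present in 7.81% of 32851 promoters, and the Igfbp4 window 1 TATAAA, present in 13.6%. The Igfbp7 window held 4 GGGCGG, present in 35.7%, and the Igfbp3 window held none of the 4 motifs, of which CCGGAAG is in 8.86%. The pairs thus shared no motif among those searched. GC content was 52.3% for Igf1, 71.3% for Igfbp4, 71.7% for Igfbp3 and 73.3% for Igfbp7.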

How the data were processed

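The deposited tables hold, for each gene in each cell, the natural log of 1 plus UMIs scaled by the authors to 10000 per cell. Cell Ranger (no version given), Seurat 4.0.2 and the mouse build mm10 are named per the submitters' processing notes, and the labels state no filter on cells. Undoing the log of the deposited values gave whole UMI counts for 100% of values within 0.01, and the methods planned for count tables were used on these. Cells had 500 or more UMIs and at most 9.99% mitochondrial UMIs.

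The 8 genes were read from every table; they and all lists were chosen with earlier results of these data known. Cells of all libraries were clustered together by Leiden at resolution 1 on a graph of 15 neighbours from 30 principal components of 2000 variable genes (scanpy 1.11.5, leidenalg 0.10.2), without the 8 genes, Kit and the pathway genes, and no cell was removed as a doublet. A cluster was named where at least 3 markers of a type were 4-fold over the median cluster and in at least 25% of its cells, unless markers of another type were nearly as strong or another type had more markers among the leading genes. Sums were scaled to CPM, with exact Poisson intervals for levels and exact conditional binomial intervals for ratios of summed counts (scipy 1.17.1), which cover counting error only. The named genes are the 8 genes whatever their values, up to 4 called genes with the largest ratios per pathway list and comparison, and the 3 genes most like each member with at least 500 UMIs. Clusters named for a gene's level were chosen after their values were seen. The ratio, its interval and the call rule were tested on simulated counts with TMM scaling, whereas the main ratios were scaled to totals. The simulated counts had Poisson noise only, so spread between cells was not covered. Gene positions and 3' UTRs are those of GENCODE vM21 on mm10, and miRNA and promoter sequences those of RefSeq on GRCm38.p6, with a promoter found for all 8 genes.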

Additional observations from a re-analysis of the deposited data

Results flagged for a closer look

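Between the Lin28+ libraries, cKit+ over cKit-, the ratio of Igfbp4 lay on opposite sides of 1 in the 2 classes that could be compared, though only the endothelial-like ratio passed the 1.5-fold limit. The ratio was 2.02 (1.61 to 2.55) in endothelial-like cells and 0.843 (0.786 to 0.905) in macrophage-like cells, each interval for counting error only. The difference between the classes was not tested, since each group is 1 library, and without cluster 10 the endothelial-like ratio was 1.24, within the limit.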

How the results depend on the processing

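No paired analysis was possible because each sorted group is 1 library, so leaving out a library or fitting a replicate block gives no value. Of 234 alternative values of the counts of called genes, 203 stayed within 1.5 times the main count and 31 moved; of 600 alternative ratios of single genes, 542 stayed, 55 moved and 3 reversed, where reversed means that a gene that was called crossed a ratio of 1. Over all cells the numbers of genes called in Lin28+/cKit- against Lin28-/cKit- cells stayed within 1.5 times under the alternatives run. For Lin28+/cKit+ over Lin28-/cKit-, 1 gene, Igf2, was called higher with TMM scaling, totals that omit haemoglobin, mitochondrial and ribosomal protein genes, stricter cells (at least 1000 UMIs and at most 8% mitochondrial UMIs), with the top 5% of cells by doublet score removed and with shared barcodes left out, at ratios of 1.61, 1.51, 1.64, 1.52 and 1.5. For Lin28+/cKit+ over Lin28+/cKit-, TMM left 1 gene lower in place of 2, and pathway calls were 13 as means over cells and 4 with at least 100 UMIs, in place of 8. In endothelial-like cells, Lin28+/cKit- over Lin28-/cKit-, there were 12 pathway calls. They were 7 without likely doublets, 4 with at least 100 UMIs and 7 without cluster 10. The Igfbp5 ratio without cluster 10 reversed to 1.08, a value that includes the 1 Lin28+/cKit- cell described above. For Lin28+/cKit+ over Lin28-/cKit-, pathway calls were 3 with at least 100 UMIs in place of 6. For Lin28+/cKit+ over Lin28+/cKit-, the genes called higher were 1 as means over cells, 1 with at least 100 UMIs and 0 without cluster 10, in place of 2, and those lower 0 with at least 100 UMIs and 2 without cluster 10, in place of 1. Pathway calls there were 6 with stricter cells, 6 with no filter on counts, 1 with at least 100 UMIs and 5 without cluster 10, in place of 3. In macrophage-like cells 1 gene was called higher as means over cells, with stricter cells, without likely doublets and with no filter, and 0 were lower with at least 100 UMIs, resolution 0.5 and 1000 variable genes. Pathway calls there were 7 as means over cells, 2 without likely doublets and 17 with no filter, in place of 4, and the Igfbp5 ratio reversed to 1.63 as means over cells and 1.18 with 1000 variable genes. TMM moved the median of all genes by 0.11 (log2) in each comparison of Lin28+/cKit+ over all cells and in macrophage-like cells. Leaving out cluster 10 and the shared barcodes was chosen after seeing the data. Where a setting changed a call, the cause was not tested. Low counts limit Igf2 in every library. The number of cells, 12 and 34, limits the values of fibroblast-like cells in the Lin28+ libraries.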
